A study of Drosophila melanogaster with 12 samples.

Results

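Cuticle proteins of the RR family carry the Rebers and Riddiford consensus, a stretch that binds chitin, and with chitin fibres they form the cuticle that epidermal cells secrete at their apical side. The genes are named after the cuticle in which they were first found (Lcp for larval, Pcp for pupal and Acp for adult cuticle), after a genomic cluster (Ccp84A) or, for most, Cpr with a map position. Many are switched on and off in turn as ecdysone rises and falls, so that a fly secretes a different set of cuticle proteins for each stage. Edg78E, Edg84A and Edg91 were isolated as genes that depend on ecdysone. Edg78E and Edg84A carry the consensus, and Edg91, which encodes a glycine-rich cuticle protein, was added to the family as an ecdysone-dependent cuticle gene.

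The members were chosen by their symbols in the expression files: Cpr or Lcp followed by a digit, Ccp84A, Acp65A, Pcp, Edg78E, Edg84A and Edg91. The symbols numbered 100, of which 2 name the same entry (Lcp1Psi), so that 99 genes were described out of 17592 symbols present in all 6 RNA-Seq libraries. Of the 99, 48 lie on chromosome arm 3L, 27 on 2R, 14 on 3R, 6 on 2L and 4 on X. They are short genes, with a median span of 871 bp, and 87 of them span up to 3000 bp.

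The tissue was the second (T2) leg of Drosophila melanogaster pupae 20 to 28 h after puparium formation (hAPF), dissected from pooled animals. RNA-Seq was made on 3 libraries of the strain eworo, which carries the alleles ebony[4], white ocelli[1] and rough[1] and has a large naked valley, and on 3 libraries of Oregon R (OreR), a wild type strain with a small one. ATAC-Seq, in which a transposase marks open chromatin, was made on 3 samples per strain. The strains differ in the whole genetic background as well as in these alleles, ebony encodes an enzyme of cuticle tanning, and strain, alleles and rearing cannot be told apart. The labels do not say whether replicates came from separate cultures, so p-values measure the spread between these libraries.

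Expression is given in FPKM (fragments per kilobase of transcript, corrected for the size of the library), as deposited. Cufflinks, the program that made the values, worked on each library separately and put genes that overlap under a common entry. Of the 99 members, 76 had an entry of their own in all 6 libraries and 8 shared an entry with other members only. A further 14 were joined or named differently between libraries, and Cpr73D was not listed in every library. The number of fragments in a library is not part of the deposited values. The confidence limits beside a value imply a fragment number, and these approximate numbers are given for the silent members and for Cpr65Az.

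All 7 leg epidermis markers with an entry of their own were above 1 FPKM in both strains, among them the leg patterning genes Dll and dac. Of all single-gene entries, 36.4% were above 1 FPKM in both strains. The summed FPKM of 6 muscle markers was 25.5 to 28.1 in the eworo libraries and 77.3, 25.5 and 60.5 in OreR replicates 1 to 3. That of 6 nervous system markers, which include the glial gene repo, was 7.64 to 27.2 in eworo and 17.2 to 43.8 in OreR. In this sum repo had 5.71 to 6.98 FPKM in eworo and 7.50 to 8.85 in OreR. The neuron marker Appl, which is part of this sum, passed the strain test described later (adjusted p = 0.0438 by limma). It was listed at 0 in every eworo library and at 22.5, 4.23 and 19.4 FPKM in OreR. Appl was the only one of the 5 tested nervous system markers to pass. The adjusted p of elav, Syt1, brp and repo were 0.365 to 0.858 by limma. The mean of elav was 7.77 FPKM in eworo against 6.88 in OreR (fitted log2 difference -0.42), and the means of Syt1, brp and repo were higher in OreR. The flight muscle actin Act88F was at 0 in replicate 2 of each strain. Averaged over the libraries of a strain, each of the 6 muscle markers exceeded 1 FPKM in eworo and in OreR, against the same 36.4%. This did not hold in every library, since bt was at 0.161 and 0.320 FPKM in eworo replicates 1 and 3. The part of muscle, neuron and glia RNA in the differences described here was not tested. In bulk legs fewer cells of a type and less RNA per cell cannot be told apart.

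Most members with an entry of their own were not above 1 FPKM in the pupal leg, and neither were most single-gene entries as a whole. With the study's limit of 1 FPKM, 51 of the 76 members with an entry of their own had a mean at or below it in both strains (silent) and 24 were above it in both (expressed), which are 67.1% and 31.6%. Among all 11236 entries of a single gene the shares were 59.7% and 36.4%. Cpr49Aa alone lay between, with 0, 2.195 and 4.46 FPKM in eworo against 0.693, 0.6004 and 0.855 in OreR. The 8 members in shared entries were all in entries above 1 FPKM. When every member took the value of its entry, joined or not, 53 of 98 were silent and 40 expressed (chosen after seeing the data).

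The means of the 24 expressed members ran from 1.07 FPKM (Cpr49Ag in OreR) to 465 FPKM (Cpr12A in eworo), and Cpr72Ea, whose entry was joined in 1 library, lay above them all. Cpr72Ea (FBgn0036617, chromosome 3L of the Release 6 genome, 16362603 to 16363750) had 2807 FPKM in eworo replicate 2, 3803 FPKM in eworo replicate 3, and 3696, 2982 and 3092 FPKM in the OreR libraries. In eworo replicate 1 it was joined with its neighbour Cpr72Eb in an entry of 4632 FPKM. The entry ranked between 32 and 69 among the 15159 to 15439 entries of a library, and the strains overlapped. Where Cpr72Eb had an entry of its own it was listed at 0 to 7.37 FPKM, and Cpr72Ec, the third gene of that cluster, lay between 0.120 and 0.266 FPKM in all 6 libraries.

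Other abundant members, given here in no order, were Cpr12A, Edg91, Cpr76Bc, Cpr49Ae and the pair Cpr97Ea and Cpr97Eb. Cpr76Bc (FBgn0036880) had 199.8, 193 and 180.0 FPKM in eworo against 188, 264 and 165 in OreR, with the strains overlapping. Cpr97Ea and Cpr97Eb shared an entry in every library, of 215, 169 and 171 FPKM in eworo against 150.2, 116 and 133 in OreR. The authors' own value per strain, which separates this pair, was 107 FPKM in eworo against 82.1 in OreR for Cpr97Ea, and 50.6 and 31.3 FPKM for Cpr97Eb. Cpr49Ah varied little, at 62.8 ± 2.1 FPKM in eworo against 60.03 ± 3.6 in OreR (SD, n = 3 each).

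**Figure D1:**
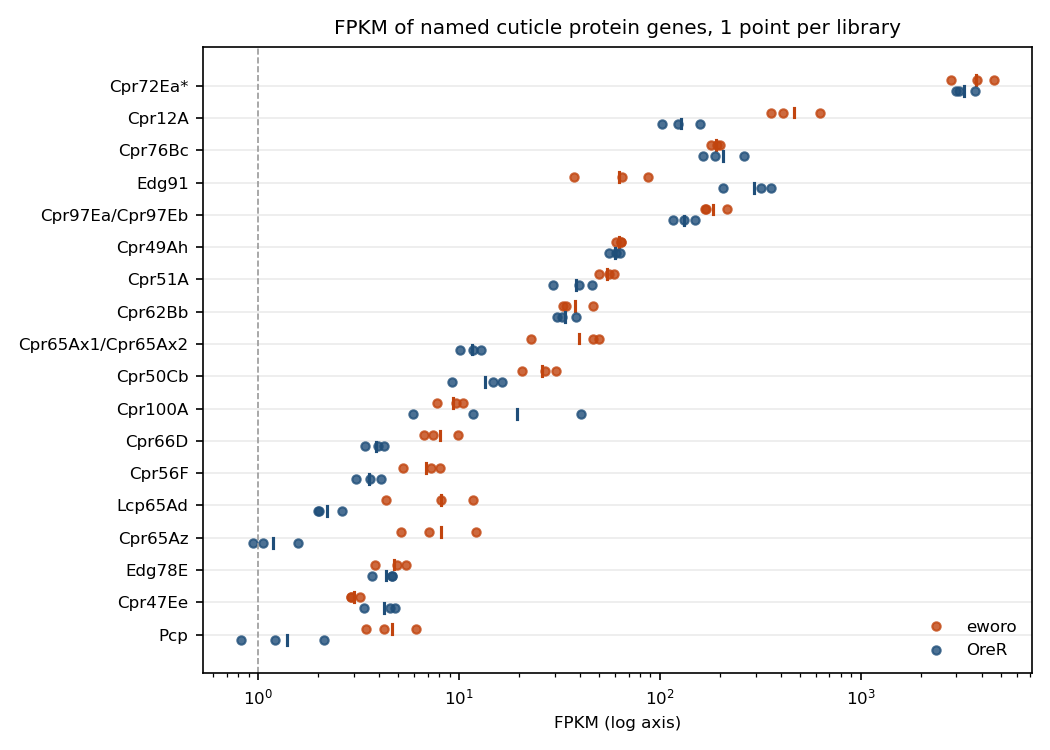
FPKM on a log axis for the cuticle protein genes named by the rule, with 1 point per RNA-Seq library, a tick at the mean of each strain and a dashed line at 1 FPKM. Cpr72Ea, marked with an asterisk because it shares its entry with Cpr72Eb in eworo replicate 1, lies above all others, and in Cpr12A, Edg91 and Cpr65Az the libraries of the strains do not overlap.

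Several other abundant members could be read only in part. Cpr49Ae shared an entry with Cpr49Af in all eworo libraries (221, 186 and 213 FPKM) and in OreR replicate 2 (143 FPKM), and in OreR replicates 1 and 3 it stood alone with 96.2 and 108 FPKM, while Cpr49Af had 0.249 and 0.918 FPKM there. The authors' value per strain was 199 FPKM in eworo against 108 in OreR for Cpr49Ae and 1.30 and 0.424 FPKM for Cpr49Af. Cpr62Bc had 61.5, 50.8 and 40.9 FPKM in eworo against 31.6 and 29.0 in OreR replicates 2 and 3, and was joined with other genes in OreR replicate 1. Cpr57A and Lcp9 shared every entry with genes outside the family, and so no level can be given for them. The single high values of Cpr47Eg (60.6 FPKM in OreR replicate 2) and Cpr67B (124 FPKM in OreR replicate 1) were those of joined entries. Cpr47Eg was below 1 FPKM in the 5 libraries where it stood alone. Cpr67B was listed at 0 in the 3 libraries where it stood alone, while the authors' value per strain was 3.42 FPKM in eworo against 1.75 in OreR.

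Copies that are nearly alike in sequence were uncertain in another way. Lcp65Ab1 and Lcp65Ab2 had almost equal values in each library (0.795 and 0.786 FPKM in eworo replicate 1), so the level of either gene is uncertain. Cpr65Ax1 and Cpr65Ax2 shared an entry of 23.0 to 49.8 FPKM in eworo and 10.1 to 12.9 FPKM in OreR, and the authors' table per strain lists both genes at 0 in both strains. Lcp65Ae, Lcp65Ag1, Lcp65Ag2 and Lcp65Ag3 shared an entry of 6.85 to 13.1 FPKM. In the authors' table Lcp65Ag2 had 3.71 and 3.02 FPKM in eworo and OreR, Lcp65Ag1 had 0.407 and 0.277 FPKM, and Lcp65Ae and Lcp65Ag3 were listed at 0.

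Many values of the 51 silent members were close to the detection limit. The 306 values of these members had a median of 0.0751 FPKM, and 102 values (33.3%) were listed at 0. The confidence limits imply a median of about 2 fragments and a highest number of about 114. Ccp84Ac, Cpr49Ad, Cpr65Eb and the pseudogene Lcp65APsi were at 0 in all 6 libraries. At this depth a member listed at or near 0 could not be told from one transcribed at a few fragments per library. Only 1 library decided the highest silent value, since Cpr67Fb had 2.43 FPKM in eworo replicate 3 and 0 in the other five. Moving the limit to 0.5 FPKM left 40 silent members, and 2 FPKM gave 54 silent and 14 expressed.

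**Figure D2:**
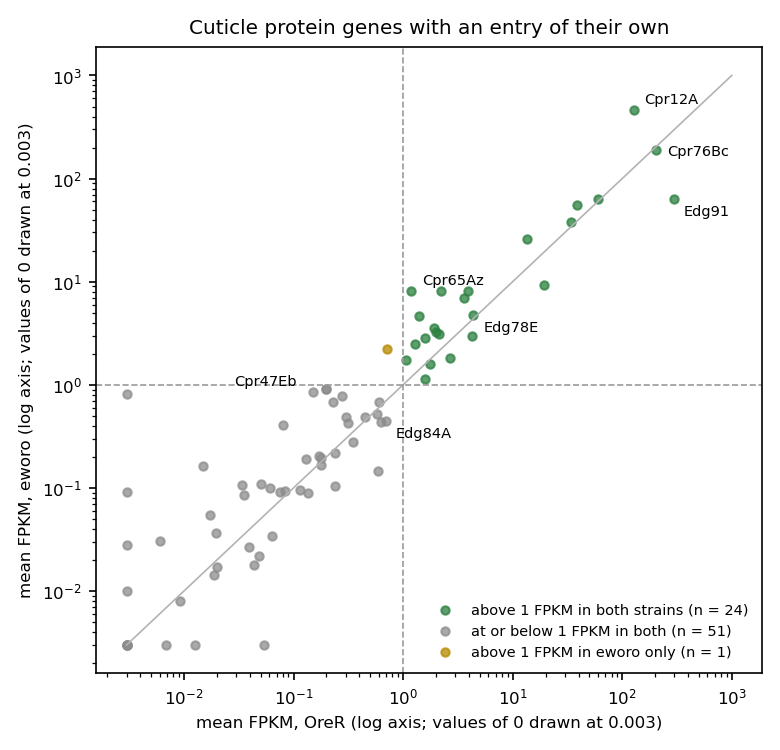
Mean FPKM in eworo against mean FPKM in OreR, both on log axes, for the 76 cuticle protein genes with an entry of their own, with dashed lines at 1 FPKM and a line of equality. The 51 silent genes fill the lower left, the 24 expressed genes the upper right, and Cpr49Aa is above 1 FPKM in eworo only.

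The larval, pupal and adult names did not sort into expressed and silent members as whole groups. Lcp1, Lcp2, Lcp3 and Lcp4, which encode main proteins of larval cuticle, were silent, with strain means of 0.147 FPKM (Lcp1 in eworo) to 0.783 FPKM (Lcp4 in eworo), as was the pseudogene Lcp1Psi between them, but Lcp65Ad, also named as larval, had 8.18, 4.36 and 11.8 FPKM in eworo against 2.64, 2.02 and 2.00 in OreR. Pcp, the pupal cuticle protein encoded within an intron of Gart, had 4.27, 3.47 and 6.15 FPKM in eworo against 1.22, 2.14 and 0.824 in OreR. Acp65Aa, the adult cuticle protein, was silent, with 0.104 to 0.581 FPKM in eworo and 0.0373 to 0.162 FPKM in OreR.

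The ecdysone-dependent genes also differed from each other. Edg78E, which encodes a protein of the pupal cuticle, had 5.47, 3.81 and 4.93 FPKM in eworo against 4.65, 4.65 and 3.70 in OreR, with the strains overlapping. Edg84A, another pupal cuticle gene, was silent, at 0.466, 0.289 and 0.568 FPKM in eworo against 1.35, 0.346 and 0.389 in OreR, with only OreR replicate 1 above 1 FPKM. Edg91 was among the most abundant members in OreR. The 3 genes that share the name thus spanned the range from silent to 359 FPKM in the same libraries.

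The strains were then compared to see which cuticle protein genes were expressed at different levels in eworo and OreR legs. In eworo legs Cpr12A and Cpr65Az were higher and Edg91 was lower than in OreR legs. Cpr12A was 3.63 times as abundant in eworo by its means, Cpr65Az 6.83 times, and Edg91 was 4.68 times as abundant in OreR. The comparison used limma on log2(scaled FPKM + 1) over the 4848 entries named alike in all libraries with a mean above 1 FPKM, and 28 of these entries, with 33 genes, belonged to the family. The other 66 members were not tested. Past an adjusted p of 0.05 were 2 of 28 entries higher in eworo, against 1.73% of all entries, and 1 of 28 lower, against 0.908%.

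Cpr12A (FBgn0030494) lies on chromosome X from 13543643 to 13544907 and was the second most abundant member in eworo after Cpr72Ea. It had 627, 411 and 357 FPKM in eworo against 102, 123 and 159 in OreR, so that the lowest eworo library was above every OreR library. The log2 difference was 1.84 (SE 0.27, adjusted p = 0.0337). The call was lost without any of the 6 libraries (adjusted p = 0.0632 to 0.118 by limma), with differences of 1.60 to 2.00.

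Cpr65Az (FBgn0035686), at the end of the 65A cluster on 3L from 6160814 to 6161589, had 7.11, 5.15 and 12.2 FPKM in eworo against 1.58, 0.943 and 1.06 in OreR. The strains did not overlap, and the confidence limits imply about 177 to 457 fragments per eworo library and about 31 to 48 per OreR library. The log2 difference was 2.00 (SE 0.32, adjusted p = 0.0432). The call remained without eworo replicate 2 (adjusted p = 0.0377) and was lost without any of the other 5 libraries (up to 0.165).

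Edg91 (FBgn0004554), on 3R from 17610856 to 17611511, had 64.6, 87.1 and 37.3 FPKM in eworo against 319, 359 and 206 in OreR. The highest eworo library was below every OreR library. The log2 difference was -2.25 (SE 0.37, adjusted p = 0.0489), and the call was lost without any of the 6 libraries (adjusted p = 0.0503 to 0.184). The summed muscle markers were at 77.3, 25.5 and 60.5 FPKM in the same OreR libraries, and their part in this difference was not tested.

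A further 9 entries had strains that did not overlap and missed the threshold, 8 of them higher in eworo and Cpr47Ee higher in OreR. In all, the eworo libraries lay above the OreR libraries in 10 of 28 entries, against 12.6% of all entries, and below them in 2 of 28, against 10.6%. An unadjusted p under 0.05 was reached by 11 of 28 entries, against 15.3% of all, and 10 of 28 reached it higher in eworo, against 9.1% of all. For a single gene the exact permutation test of 3 libraries against 3 cannot give a p under 0.1, the value it gave for each of these 12 entries.

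Among the 8, the shared entry of Cpr65Ax1 and Cpr65Ax2 had 46.8, 23.0 and 49.8 FPKM in eworo against 12.9, 11.7 and 10.1 in OreR, with a log2 difference of 1.63 (SE 0.32, adjusted p = 0.0818). Without eworo replicate 2 its adjusted p was 0.00588. Lcp65Ad, whose values are given above, had a log2 difference of 1.42 (SE 0.34, adjusted p = 0.138), and 0.0341 without eworo replicate 2. Both entries lie in the 65A cluster, as does Cpr65Az, with silent members between them. Eworo replicate 2 was the lowest eworo library in 9 of the 10 entries whose eworo libraries lay above the OreR libraries, all but Cpr12A. It was also low in short genes as a whole, since over all tested entries spanning up to 1500 bp the median deviation from an entry's mean was -0.14 (log2) in eworo replicate 2 and 0.23 in replicates 1 and 3.

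Cpr66D had 7.45, 6.74 and 9.96 FPKM in eworo against 3.404, 4.26 and 3.98 in OreR (log2 difference 0.88, SE 0.18, adjusted p = 0.0909). Pcp had a log2 difference of 1.24 (SE 0.29, adjusted p = 0.130). Cpr56F had 7.32, 5.28 and 8.06 FPKM in eworo against 4.08, 3.60 and 3.09 in OreR (log2 difference 0.77, SE 0.19, adjusted p = 0.146). In each of these genes the lowest eworo library was above the highest OreR library, and the difference missed the threshold.

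Cpr50Cb had 26.9, 20.8 and 30.6 FPKM in eworo against 14.8, 16.4 and 9.26 in OreR (log2 difference 0.93, adjusted p = 0.178). Cpr51A had 55.7, 49.8 and 59.2 FPKM in eworo against 46.0, 29.3 and 39.8 in OreR (log2 difference 0.53, adjusted p = 0.264), and the joined entry of Cpr97Ea and Cpr97Eb had a log2 difference of 0.48 (adjusted p = 0.207). Cpr47Ee had 3.21, 2.90 and 2.91 FPKM in eworo against 4.53, 4.82 and 3.37 in OreR (log2 difference -0.37, adjusted p = 0.348). The fitted differences of Cpr50Cb, Cpr51A and the joined entry were below that of Cpr12A, and this gap between genes was not tested.

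Other abundant members overlapped between the strains. The log2 differences were -0.07 (SE 0.19) for Cpr76Bc, 0.07 (SE 0.08) for Cpr49Ah, 0.15 (SE 0.16) for Cpr62Bb and 0.10 (SE 0.17) for Edg78E, and their adjusted p were 0.616 to 0.849. Cpr62Bb had 46.5, 33.2 and 34.2 FPKM in eworo against 38.3, 30.7 and 32.6 in OreR. In Cpr100A a single library stood apart, since OreR replicate 1 had 40.7 FPKM and the other five had 5.95 to 11.8 FPKM.

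The 28 entries had a median log2 difference of 0.45, with 20 above 0, while the median over all entries was -0.01 and 48.6% were above 0. Short genes as a whole had higher values in eworo in this fit: entries spanning up to 3000 bp had a median of 0.14, 68.6% of them above 0 and 17.4% with all eworo libraries above all OreR libraries. Of the 25 tested entries of a single member, 17 span up to 3000 bp. With the trend over span removed, the median of these 25 was 0.27, Cpr12A kept a difference of 1.66 (adjusted p = 0.0430) and Cpr65Az one of 1.76 (adjusted p = 0.0319), and Edg91, at -2.51, had an adjusted p of 0.0612.

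**Figure D3:**
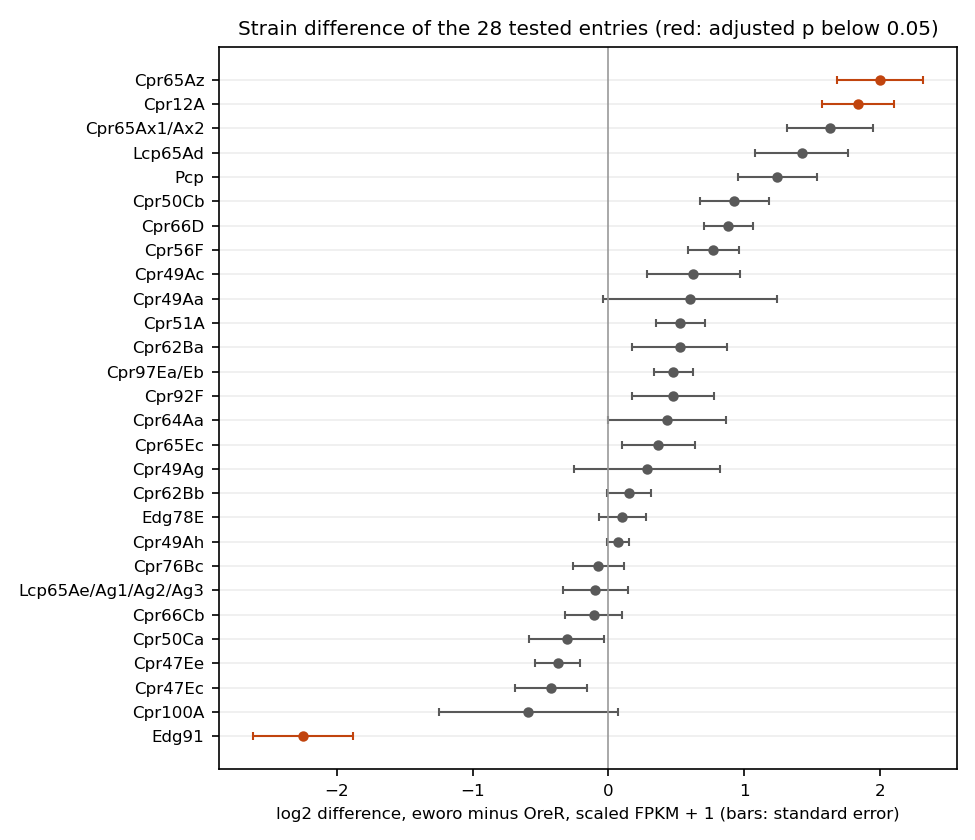
Log2 difference in scaled FPKM + 1 between eworo and OreR for the 28 tested entries of the family, sorted, with bars of 1 standard error and entries past an adjusted p of 0.05 in red. Cpr65Az and Cpr12A stand at the upper end and Edg91 at the lower end, and 20 of the 28 entries lie above 0.

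Among the low members, which were not tested, the eworo libraries lay above all OreR libraries in 7 of 51 entries, against 6.39% of all low entries, and below them in 1 of 51, against 3.10%. Cpr47Eb had 0.914, 0.895 and 0.742 FPKM in eworo against 0.113, 0.104 and 0.234 in OreR. Cpr11B had 0.806, 0.749 and 0.494 FPKM in eworo against 0.253, 0.285 and 0.146 in OreR. Lcp1 was the entry higher in OreR, with 0.601, 0.324 and 0.861 FPKM against 0.0587, 0.115 and 0.268 FPKM in eworo. These 3 genes were below 1 FPKM in every library, whereas Lcp65Ab1 and Lcp65Ab2, also among the 7, reached 1.40 and 1.39 FPKM in eworo replicate 3. The values of Lcp65Ab1 and Lcp65Ab2 were almost equal in each library, so both count among the 7 but cannot be taken as separate entries.

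Other genes of the cuticle were taken from lists to set the family beside them. Of the machinery that makes and orders chitin, all 10 listed genes with an entry of their own were above 1 FPKM in both strains. The share over all single-gene entries was 36.4%. None of the 10 passed the test, and 3 of 10 had an unadjusted p under 0.05 by limma, against 15.3% of all entries. The most abundant of these 10 were obst-B, a chitin-binding matrix protein (173 ± 34 FPKM in eworo against 190 ± 23 in OreR, SD, n = 3 each), Gfat1, the first enzyme of the hexosamine pathway (75.3 ± 7.8 and 87.2 ± 8.0 FPKM), kkv, the chitin synthase of the epidermis (63.4 ± 6.5 and 86.1 ± 6.4 FPKM), and rtv, which is needed to order chitin fibres (70.4 ± 9.3 and 58.5 ± 9.8 FPKM). The listed genes of other cuticle families that had an entry of their own were Tweedle genes and resilin, as the Vajk genes were not found by symbol. Only 3 of these 21 were above 1 FPKM in both strains, against the same 36.4%. None of the 4 tested passed, and 1 of 4 had an unadjusted p under 0.05 by limma, against the same 15.3%. TwdlE, a Tweedle protein, had 15.9 ± 2.8 and 15.4 ± 2.0 FPKM, and TwdlT had 3.38 ± 0.35 and 1.82 ± 0.29 FPKM.

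Of the tanning genes, which harden and colour the cuticle, 1 of 6 passed the test, lower in eworo, against 0.908% of all entries. An unadjusted p under 0.05 by limma was reached by 3 of 6, against 15.3% of all entries. Ddc, the dopa decarboxylase that makes dopamine, had 17.8, 20.6 and 11.4 FPKM in eworo against 146, 206 and 71.3 in OreR (log2 difference -2.92, SE 0.44, adjusted p = 0.0360). The OreR libraries fell in the same order for Ddc as for Edg91, with replicate 2 the highest and replicate 3 the lowest, and so did the eworo libraries. The ple gene, which encodes the tyrosine hydroxylase one step before Ddc, had 3.46 ± 2.24 FPKM in eworo against 16.9 ± 3.3 in OreR (SD, n = 3 each, log2 difference -2.10, adjusted p = 0.0681 by limma), and laccase2, the phenol oxidase of the cuticle, had 21.9 ± 6.3 and 25.2 ± 4.9 FPKM.

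Of 22 listed genes of the ecdysone response only 9 could be tested, and the test called none of them. At an unadjusted p under 0.05 by limma there were 0 of 9, against 15.3% of all entries. Of the 22, 11 had an entry of their own, and 9 of these were above 1 FPKM in both strains. The other 2, br and Hr38, were listed at 0 in every library. Genes without an entry of their own were not tested. ImpE2, an ecdysone-induced secreted protein of the leg disc, had 5472 ± 625 FPKM in eworo against 6478 ± 677 in OreR. EcR, the ecdysone receptor, had 26.1 ± 14.8 and 39.6 ± 15.4 FPKM, and its spread between libraries was wider than the difference between strains (SD, n = 3 each).

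The family lies in clusters, and neighbours within a cluster were expressed at very different levels. With a gap of at most 20 kb between neighbours, 71 of the 99 members fell in 12 clusters of 3 or more genes and 28 lay outside. In 3 clusters no member had a mean above the limit, those from Edg84A to Ccp84Aa, from Lcp1 to Lcp4 and from Cpr67Fa1 to Cpr67Fb, and 7 held both silent and expressed members with entries of their own. In the cluster of 4 genes from Cpr76Ba to Cpr76Bd, Cpr76Bc had 198 FPKM over both strains and the other three were silent. In the 72E cluster Cpr72Ea had 2807 FPKM or more in every library and Cpr72Ec 0.266 FPKM or less.

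The largest cluster, 65A, holds 19 members within 31.2 kb on 3L, from Lcp65Ag3 to Cpr65Az. Of its 13 members with entries of their own 11 were silent, and the 2 expressed genes were Lcp65Ad near the middle and Cpr65Az at the end. The remaining 6 members were in the 2 shared entries described above, of which that of Cpr65Ax1 and Cpr65Ax2 was the highest in the cluster. The cluster from Edg84A to Ccp84Aa holds 8 members within 20.5 kb on 3R, and its highest member was Edg84A at 0.568 FPKM over both strains. The 7 Ccp84A genes lay between 0 and 0.214 FPKM in all 6 libraries.

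The highest members of the other clusters were Lcp3 in the Lcp1 to Lcp4 cluster (0.643 FPKM over both strains), Cpr49Ae in the cluster of 8 genes at 49A, Cpr62Bc at 62B, Cpr64Aa at 64A (2.22 FPKM), Cpr65Ec at 65E (2.62 FPKM) and Edg78E at 78C (4.54 FPKM). At 67F the highest was Cpr67Fb, through the single library named above. At 47E it was Cpr47Eg by the value of its joined entry in OreR replicate 2, and among the members of that cluster that stood alone in every library it was Cpr47Ee.

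The ATAC-Seq was read next, to see whether silent genes of the family also lay in open chromatin. A peak lay within 500 bp of the gene in 26 of 51 silent members in eworo (51.0%) and 24 of 51 in OreR (47.1%), against 51.5% and 47.5% of all silent genes. The same held for 21 of 24 expressed members in eworo (87.5%) and 20 of 24 in OreR (83.3%), against 93.4% and 92.9% of all expressed genes. Silent coding genes of up to 1500 bp had a peak in 40.1% and 35.1%, and expressed ones in 89.3% and 88.1%. Peaks were called on reads pooled over the replicates of a strain (44398 peaks in eworo and 42015 in OreR), so no spread between replicates can be given and the shares were not tested.

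**Figure D4:**
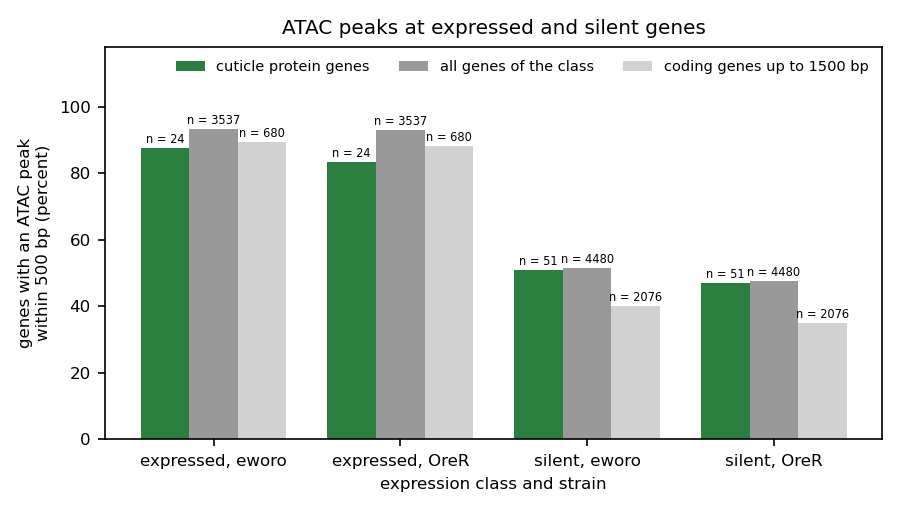
Percent of genes with at least 1 ATAC peak within 500 bp, for expressed and silent genes in each strain, with cuticle protein genes beside all genes of the same class and coding genes of up to 1500 bp. The bars of the silent cuticle protein genes (51.0% and 47.1%) stand near those of all silent genes (51.5% and 47.5%).

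The shares depended on what counted as a peak at a gene. With peaks of a -log10 q of at least 10 only, 5 of 51 silent members in eworo (9.80%) and 2 of 51 in OreR (3.92%) had a peak, against 17.1% and 13.7% of all silent genes, and of the expressed members 41.7% and 37.5% had one, against 71.9% and 62.2% of all expressed genes. Among coding genes of up to 1500 bp these shares were 9.73% and 7.42% of silent and 56.0% and 45.1% of expressed ones. Peaks inside the annotated gene alone were present in 25.5% and 19.6% of the silent members, against 33.7% and 31.0% of all silent genes and 18.4% and 16.1% of short coding ones. Of the expressed members 66.7% had one in each strain, against 89.1% and 88.3% of all expressed genes and 79.3% and 77.9% of short coding ones. The median of the highest peak per gene was a pileup of 52.5 tags in eworo and 55.5 in OreR at silent members with a peak, and 67 and 68.5 at expressed ones, against 60 and 61, and 75 and 75, over all genes of the classes. The pileup is the number of tags over the summit, with duplicate tags at a position removed.

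Peaks varied from gene to gene among both expressed and silent members. Cpr72Ea, the most abundant member, had 1 peak in each strain, of a pileup of 59 in eworo and 61 in OreR (2.06-fold and 1.98-fold over the local background). Silent Cpr47Ea had 4 peaks in each strain, the highest with a pileup of 71 and 76 (3.00-fold and 3.06-fold). Cpr65Az, expressed by its library means, and the pair Cpr65Ax1 and Cpr65Ax2, whose shared entry was above 1 FPKM, had none within 500 bp in either strain. The authors' value for Cpr65Az was 5.99 FPKM in eworo and 0.866 in OreR, and the level of either Cpr65Ax gene is uncertain. Cpr76Bc and its silent neighbour Cpr76Bb were within reach of the same peak, of a pileup of 73 in eworo and 76 in OreR, which overlaps Cpr76Bc.

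Of the genes that passed the expression test, Cpr12A and Edg91 had peaks in both strains. Cpr12A had 4 peaks in eworo and 3 in OreR, with the highest at a pileup of 73 and 75. Edg91 had 4 peaks in eworo and 1 in OreR, and the highest in each, at the same place, had a pileup of 71 and 67. The 3 further eworo peaks at Edg91 had pileups of 47 to 50, near the lowest in the list (39). Pcp had 2 peaks in OreR, of 48 and 50, and none in eworo.

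The silent clusters were not free of peaks. The cluster from Edg84A to Ccp84Aa, with 500 bp on either side, held 11 peaks in eworo and 7 in OreR, which covered 8.55% and 5.21% of its length, against 6.58% and 6.21% of the main chromosome arms. Of the 11 eworo peaks 5 overlapped an OreR peak, and all 7 OreR peaks overlapped an eworo peak. The highest lay between Ccp84Ag and Ccp84Af, at 6688427 to 6689182 on 3R in eworo, with a pileup of 73 (2.69-fold, -log10 q of 11.1), and at 6688394 to 6688836 in OreR, with a pileup of 68 (2.43-fold, -log10 q of 8.53). Ccp84Ag beside it had 0 to 0.0756 FPKM in the 6 libraries. The Lcp1 to Lcp4 cluster held 4 peaks in eworo and 3 in OreR, over 7.0% and 6.36% of its length, and the cluster from Cpr67Fa1 to Cpr67Fb 3 and 2 peaks, over 6.14% and 4.66%.

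Clusters with expressed members had more of their length in peaks in some cases and not in others. The 65A cluster held 17 peaks in each strain, 14 of them shared, over 11.0% and 9.98% of its length, and the 49A cluster 26 and 23 peaks over 11.4% and 10.6%. The 64A cluster, with Cpr64Aa as its expressed member, held 2 peaks in eworo and 1 in OreR over 1.81% and 0.710%. In the 65A cluster the region from Lcp65Ac to Lcp65Aa, which holds both Cpr65Ax genes and both Lcp65Ab genes, had 1 OreR peak beside Lcp65Ac and no other peak. How reads of these similar copies were placed was not tested.

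**Figure D5:**
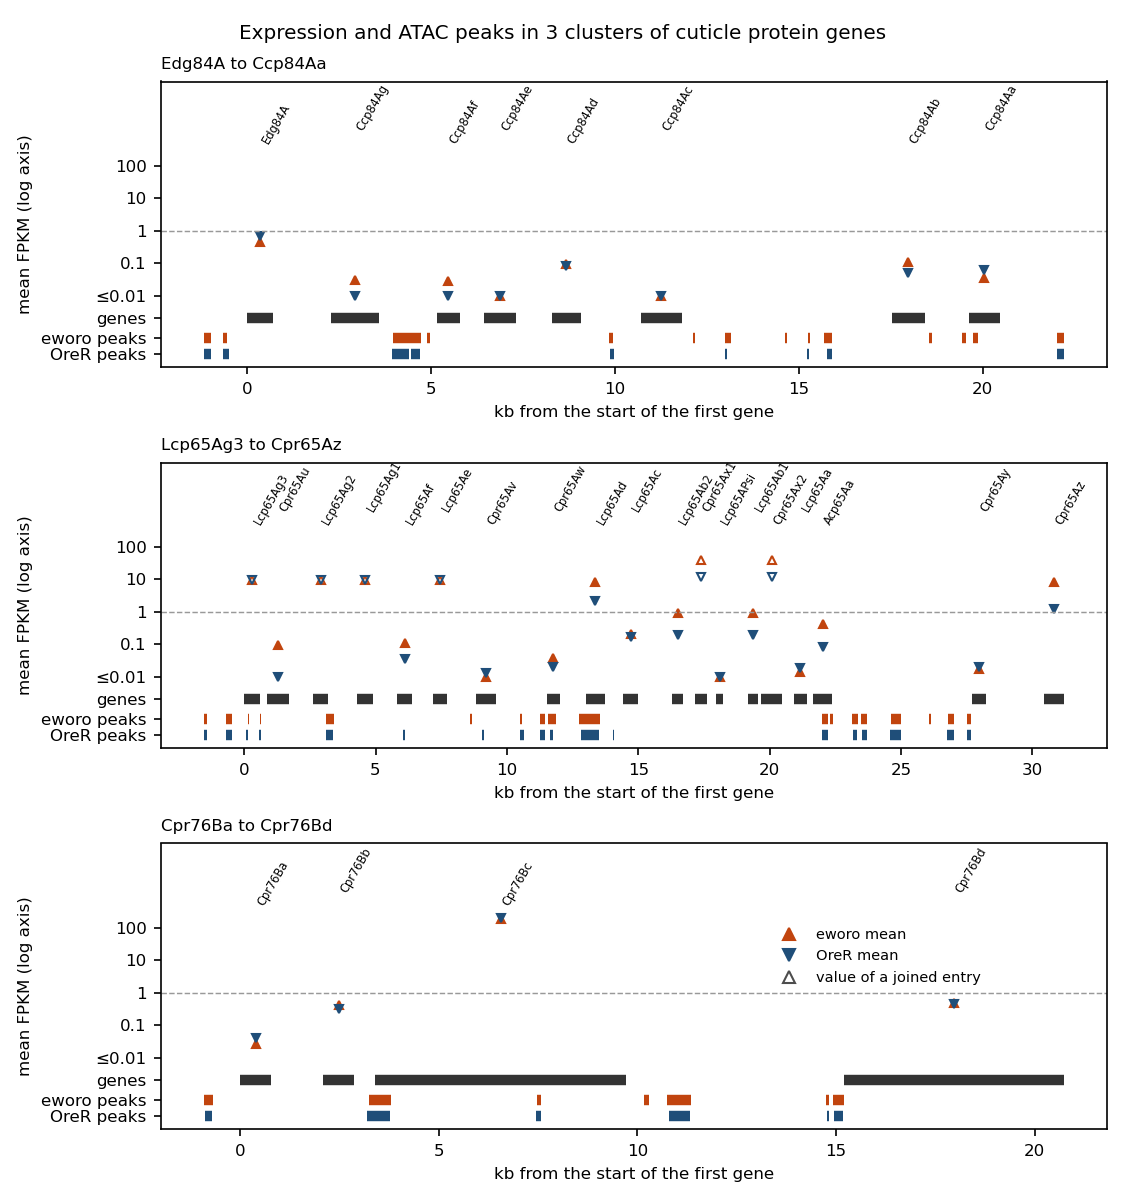
Maps of 3 clusters in kb from the start of the first gene, with the mean FPKM of each gene in eworo and OreR on a log axis (triangles, open where the entry is shared), the genes as black bars and the ATAC peaks of each strain as coloured bars to scale. The 8 genes from Edg84A to Ccp84Aa all lie below the dashed line at 1 FPKM although both strains have peaks there, and Cpr76Bc lies at 198 FPKM between silent neighbours.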

How the data were processed

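RNA-Seq of 6 libraries and ATAC-Seq of 6 samples, 3 per strain each, were analysed as deposited. Per the study's methods, the authors aligned RNA reads with TopHat 2.1.1 to Release 6 of the genome and deposited FPKM per gene and library from Cufflinks 2.2.1, not scaled between libraries. The library preparation was stranded. For each strain the authors deposited 1 list of peaks called with MACS (2.1.1.20160309 in the file header, q limit of 0.01, no control) on pooled reads, with the pileup as signal, its ratio (fold) to the local background and a -log10 q. Their Cuffdiff table of fold changes and p-values was not used, and its FPKM per strain are given as the authors' values.

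FPKM were divided by a median-of-ratios factor per library (0.998 to 1.01), and log2(FPKM + 1) entered limma 3.58.1 in R 4.3.3 (strain as the only term, with a variance trend) over 4848 entries named alike in all 6 libraries with a mean above 1 FPKM. P-values were adjusted by Benjamini-Hochberg over all of them. The added 1 shrinks log2 differences of low genes. Library correlations across entries were 0.852 to 0.899 within a strain and 0.821 to 0.879 between strains. The fit was tested on simulated data. Exact permutation tests used scipy 1.17.1, and figures matplotlib 3.10.9.

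All 99 members were matched by symbol to RefSeq gene positions (Release 6 plus ISO1 MT), which carry no strand here. A peak counted at a gene with 1 bp of overlap after extension by 500 bp. Windows at start sites and protein sequence classes were planned and not run, as no strand or sequence was used here. Fragment numbers implied by the confidence limits are the square of 2 times the FPKM over the half-width of the interval. They were read for the silent members and for Cpr65Az only. They came within 0.05 of a whole number in 103 of 204 silent values above 0 and in 23 of 144 expressed ones, so they are approximate.

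The members, gene lists, tests and alternatives were chosen with earlier results of these data known. Named are Edg78E, Edg84A and Edg91, members of 10 FPKM or more in a strain, members past the threshold or with strains that do not overlap, the highest member of each cluster, and up to 4 genes of each other list. Cpr47Eb, Cpr11B, Lcp1 and other low or joined members were named after their values were seen. The alternatives cover the pseudocount, filter, scaling, joined entries, zeros, replicate block, single libraries, expression limit, cluster gap and peak rules.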

Additional observations from a re-analysis of the deposited data

How the results depend on the processing

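Under the alternatives, 237 log2 differences of named entries kept direction and call, 32 lost the call, 3 gained it and 7 changed sign. The last were in entries that passed in no fit. Only Cpr12A, Cpr65Az and Edg91 had a call to lose, and each lost it in most of its alternatives. For the other named entries, a call that was kept means only that the entry stayed uncalled. With the trend over span removed Cpr49Ah was at -0.11, Edg78E at -0.10 and Cpr76Bc at 0.0505, without eworo replicates 1 and 3 Cpr62Bb was at -0.0183 and Edg78E at -0.14, and with 1 library left out Cpr100A ran from -1.16 to 0.12 (without OreR replicates 2 and 1) and Cpr76Bc from -0.23 to 0.12 (without OreR replicates 3 and 2). The count of members higher in eworo (2) was 1 with a mean above 5 FPKM, 1 with no filter (Cpr47Eb) and 1 with a pseudocount of 5 FPKM. It was 0 when every gene took the value of its entry and 0 without both eworo libraries that were low in long genes (replicates 1 and 3, an alternative chosen after seeing the data). The count lower in eworo (1) was 0 in each of these except the pseudocount of 5 FPKM, and 0 with a pseudocount of 0.1 FPKM or the trend over span removed (also chosen after seeing the data). Leaving out 1 library gave 0 to 3 members higher (3 without eworo replicate 2 and 0 without any of the others) and 0 lower, with 42 to 91 and 25 to 60 over all entries. Over all entries, the counts of 84 higher and 44 lower became 47 and 24 with a mean above 5 FPKM, 70 lower with the value of the entry, and 45 higher without eworo replicates 1 and 3. With the value of the entry 108 of all entries were higher (45 members and 9555 entries tested). With no filter 77 were higher and 43 lower (79 and 11903 tested), and with a pseudocount of 5 FPKM 76 and 44. Where limma called 0 members in a direction, those at an unadjusted p under 0.05, in either direction, ran from 9 of 14 (mean above 5 FPKM) to 19 of 79 (no filter). The same share over all entries was not counted in these fits. With zeros as missing, the entry of Cpr65Ax1 and Cpr65Ax2 passed too. The cause of these changes was not tested.

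Replicate numbers did not pair the samples: the deviations of same-numbered libraries had correlations of -0.04, -0.11 and 0.05. With the replicate number as a block, 0 members were higher, Edg91 was lower (adjusted p = 0.0357), and 14 and 13 of all entries passed.

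Expressed members numbered 14 with a limit of 2 FPKM and 40 when every member took the value of its entry (chosen after seeing the data). Leaving out 1 library gave 23 to 24 expressed and 48 to 51 silent. Clusters numbered 12 to 13 over the gaps tried. With a -log10 q of at least 10, a peak lay at 41.7% and 37.5% of expressed and 9.80% and 3.92% of silent members in eworo and OreR. Over all genes these were 71.9% and 62.2%, and 17.1% and 13.7%. Without extension the shares were 66.7% of expressed members in each strain (all genes 89.1% and 88.3%) and 25.5% and 19.6% of silent ones (33.7% and 31.0%). With 2000 bp they were 95.8% in both strains (96.8% and 96.4%), and 78.4% and 76.5% (74.6% and 70.4%). The start-site window was not run. Low fragment numbers limit all values under 1 FPKM.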
